A study of Mus musculus with 4 samples.

Results

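The genes described here are 4 genes of the CCN family (*Ccn1*, *Ccn2*, *Ccn4* and *Ccn5*) and 6 genes of the Hippo pathway and its output (*Ankrd1*, *Amotl2*, *Yap1*, *Tead1*, *Lats2* and *Axl*). They were taken by symbol from the 56748 gene IDs of the count files, each symbol matched 1 ID, and their counts were compared between *Hnrnpl* knockdown and scrambled C2C12 myoblasts. C2C12 is an established mouse myoblast line, labelled WT in both groups. Control cells carried a plasmid with a scrambled shRNA, and knockdown cells carried plasmids with a mixture of 3 shRNAs against *Hnrnpl*, which encodes the splicing factor hnRNP L. In both groups the plasmids also expressed eGFP, and stable cells were selected with puromycin. Each group had 2 libraries, made from different passages of 1 selected stable line, so p-values measure the spread between passages, and a difference between the selected lines cannot be told apart from the knockdown. Nanopore direct RNA sequencing reads 1 RNA molecule at a time from its 3′ end, without amplification. Replicate 1 of both groups formed batch 1 in the labels and replicate 2 formed batch 2. Pairs of values below give replicate 1 first.

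Hippo signaling restrains growth through a kinase cascade in which LATS kinases, LATS2 among them, phosphorylate YAP1 and keep it out of the nucleus. Unphosphorylated YAP1 enters the nucleus and binds TEAD factors such as TEAD1, which hold it on the promoters and enhancers of its targets. CCN1 (CYR61) and CCN2 (CTGF) are secreted matricellular proteins that bind integrins, and their genes, together with *Ankrd1*, *Amotl2* and *Axl*, are commonly used as readouts of YAP activity. CCN4 (WISP1) and CCN5 (WISP2) belong to the same family and were first described as products of Wnt-induced genes. In myoblasts, YAP activity is known to favor proliferation over differentiation.

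The libraries held between 1229424 and 1676911 counted reads, and 3 reads, the limit taken for a count of 0, corresponded to 1.79 to 2.44 CPM (counts scaled to a common library total). *Hnrnpl* had 358 and 656 reads in the scrambled libraries against 242 and 258 in the knockdown libraries, which placed both knockdown libraries below both scrambled libraries (log2 fold change -0.78; edgeR adjusted p = 0.0112). Of the myoblast markers, *Des*, *Myf5* and *Cdh15* were read in all libraries, whereas *Myod1* and *Msc* were listed with 1 read in scrambled 2 and none elsewhere. Why these myoblast genes were listed near 0 was not tested, so other genes listed at 0 are given as listed and not as silent. The summed level of the 5 myoblast markers was 463 and 546 CPM in scrambled against 358 and 300 CPM in knockdown. Of these markers, edgeR called *Cdh15* and *Des* lower, and DESeq2 called *Cdh15* with both dispersion fits and *Des* with the local fit only. The part of this lower level in the results below was not tested. In every library the summed level was at most 7.16 CPM for the 4 fibroblast markers, 5.69 CPM for the 5 macrophage markers, 1.19 CPM for the 3 adipocyte markers and 0.813 CPM for the 3 endothelial markers. The 3 neuron markers summed to 108 and 88.9 CPM in scrambled against 14.5 and 14.6 CPM in knockdown, and of these only *Tubb3* was read.

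*Ankrd1* and *Ccn4*, 2 of the 9 genes that passed the filter on low counts, fell in knockdown, to 59.8% and 59.9% of their scrambled means. None of the 9 was called higher by edgeR or by any of the 4 DESeq2 configurations. Before adjustment, p was under 0.05 for 4 of the 9 (*Ankrd1*, *Ccn4*, *Ccn2* and *Axl*) and for 1894 of the 8670 genes tested. *Ccn2* and *Axl* differed in opposite directions without passing the test, *Ccn1* stood on the side of *Axl*, and the pathway genes *Yap1*, *Tead1* and *Lats2* and the target *Amotl2* had log2 fold changes between -0.19 and -0.04, of which all but *Tead1* changed sign once the median of each chromosome was removed. A gene was called when its edgeR adjusted p was under 0.05, its absolute log2 fold change over 0.5 and its mean normalized count over 10. By this rule 3.22% of the 8670 genes tested were called lower and 2.33% were called higher. The normalized counts, which are counts scaled to the mean library size, were lower in both knockdown libraries than in both scrambled libraries for 5 of the 9 genes, where the share over all genes tested was 26%. They were higher in both knockdown libraries for 1 of the 9, against 26.4% of all genes tested. With 2 libraries per group, the smallest p that an exact permutation test of a single gene can give is 0.333.

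TEAD factors bind the letters GGAATG or, on the other strand, CATTCC. The bases before the start sites are shown for the 2 genes that fell and for 2 genes that did not. Those 2, *Ccn1* and *Axl*, both hold a match, so they do not stand for all genes that did not fall. Windows ran from 250 bases before to 50 bases after the start of the canonical transcript in GENCODE vM39 (GRCm39), and positions count back from the start, with -1 as the last base before it. The letters, on either strand, were present in 5 of the 9 windows reported, against 14.0% of 21617 protein-coding genes and 12.6% of the genes tested. Several of these genes were listed as YAP targets, so this share is not that of an unselected set. Printed are the 250 bases before the start, 5′ to 3′ on the strand of the gene, with the TEAD letters in capitals. They lie at chr3:145355739-145355988 (*Ccn1*, reverse strand), chr7:25488330-25488579 (*Axl*, reverse), chr19:36097507-36097756 (*Ankrd1*, reverse) and chr15:66762909-66763158 (*Ccn4*, forward).
Ccn1: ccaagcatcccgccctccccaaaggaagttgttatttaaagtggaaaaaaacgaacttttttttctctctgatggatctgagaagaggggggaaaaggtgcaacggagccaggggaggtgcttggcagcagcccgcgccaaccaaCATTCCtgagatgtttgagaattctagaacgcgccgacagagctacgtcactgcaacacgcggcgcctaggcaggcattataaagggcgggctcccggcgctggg
Axl: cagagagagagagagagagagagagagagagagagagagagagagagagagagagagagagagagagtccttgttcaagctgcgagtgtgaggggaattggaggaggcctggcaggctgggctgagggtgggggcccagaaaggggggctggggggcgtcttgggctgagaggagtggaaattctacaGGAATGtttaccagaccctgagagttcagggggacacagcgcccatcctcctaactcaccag
Ankrd1: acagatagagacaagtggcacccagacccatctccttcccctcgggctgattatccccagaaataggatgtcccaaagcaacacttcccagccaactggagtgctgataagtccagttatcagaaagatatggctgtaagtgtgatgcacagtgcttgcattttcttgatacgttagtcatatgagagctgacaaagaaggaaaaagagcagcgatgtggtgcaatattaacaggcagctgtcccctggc
Ccn4: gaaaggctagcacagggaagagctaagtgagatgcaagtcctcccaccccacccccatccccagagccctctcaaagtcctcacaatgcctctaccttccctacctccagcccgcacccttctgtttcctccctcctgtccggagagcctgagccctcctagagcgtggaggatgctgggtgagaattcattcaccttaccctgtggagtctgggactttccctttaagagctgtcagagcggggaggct

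*Ccn1* held 1 match on the opposite strand, at -105 to -100, and *Axl* held 1 match, at -62 to -57. The windows of *Ankrd1* and *Ccn4*, the 2 genes that fell, held none. The transcript of *Ankrd1* does hold GGAATG, just past the end of its window, so the absence there depends on where the window was cut. Of the genes not printed, *Amotl2* held 2 matches, at -235 to -230 and -135 to -130, *Yap1* held 1, at -77 to -72, and *Tead1* held 3, at -193 to -188 and, after the start, at 29 to 34 and 41 to 46. *Ccn5* and *Lats2* held none. A missing match says only that these letters were not in the window.

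Among the CCN genes, *Ccn4* (ENSMUSG00000005124.11, chr15:66763060-66795050) was the one that fell. It had 265 and 345 reads in the scrambled libraries against 182 and 136 in the knockdown libraries. After normalization this was 284 ± 9.04 (SD, n = 2) for scrambled against 170 ± 15.8 (SD, n = 2) for knockdown, with a gap between the groups that was wide against both SDs. Its log2 fold change was -0.74 ± 0.15 (SE; edgeR adjusted p = 0.00626), with a 95% interval from -1.05 to -0.42. The ratio of knockdown to scrambled was negative within both batches, -0.61 in batch 1 and -0.87 in batch 2 on the log2 scale. In RNA of whole cultures, fewer cells that express a gene and less RNA per cell cannot be told apart. With the parametric dispersion fit of DESeq2 the fold change was the same, -0.74, but the call was lost (adjusted p = 0.0737 with the Wald test and 0.0838 with the likelihood-ratio test).

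*Ccn2* (ENSMUSG00000019997.12, chr10:24471333-24474900) had 475 and 424 reads in the scrambled libraries against 296 and 300 in the knockdown libraries. Normalized counts were 497 and 357 in scrambled against 295 and 351 in knockdown. Scrambled 1 stood high, while scrambled 2 and knockdown 2 were nearly level, so the groups did not overlap but came close. At a log2 fold change of -0.40 ± 0.16 (SE) and an edgeR adjusted p of 0.155, *Ccn2* was not called. Its 95% interval ran from -0.75 to -0.06. The 2 batches differed, with a log2 ratio of -0.75 in batch 1 and -0.02 in batch 2. Without scrambled 2 the log2 fold change was -0.63 and the gene was called (edgeR adjusted p = 0.0369), and without scrambled 1 it was -0.15.

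*Ccn1* (ENSMUSG00000028195.5, chr3:145352720-145355738) had 660 and 642 reads in the scrambled libraries against 829 and 571 in the knockdown libraries. The normalized counts, 691 and 540 in scrambled against 826 and 667 in knockdown, overlapped, with knockdown 2 below scrambled 1. Within each batch the knockdown library was the higher one, by 0.26 in batch 1 and 0.30 in batch 2 on the log2 scale. The log2 fold change of 0.28 ± 0.15 (SE) was not called (edgeR adjusted p = 0.296), and its 95% interval, from -0.04 to 0.60, did not reach the interval of *Ccn4*.

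*Ccn5* (ENSMUSG00000027656.8, chr2:163662753-163675066) was barely read, with 1 and 10 reads in the scrambled libraries against 2 and 0 in the knockdown libraries. It did not pass the filter on low counts and was not tested. Of the 11 reads in scrambled, 10 were in scrambled 2 alone, and the knockdown libraries held 2 in all, which gives a ratio of 0.214 with a 95% counting interval from 0.0230 to 0.980. This interval covers counting error only. The remaining family members did not pass the filter either, with 3 and 8 reads in scrambled against 5 and 1 in knockdown for *Ccn3* and 0 reads in all 4 libraries for *Ccn6*.

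**Figure D1:**
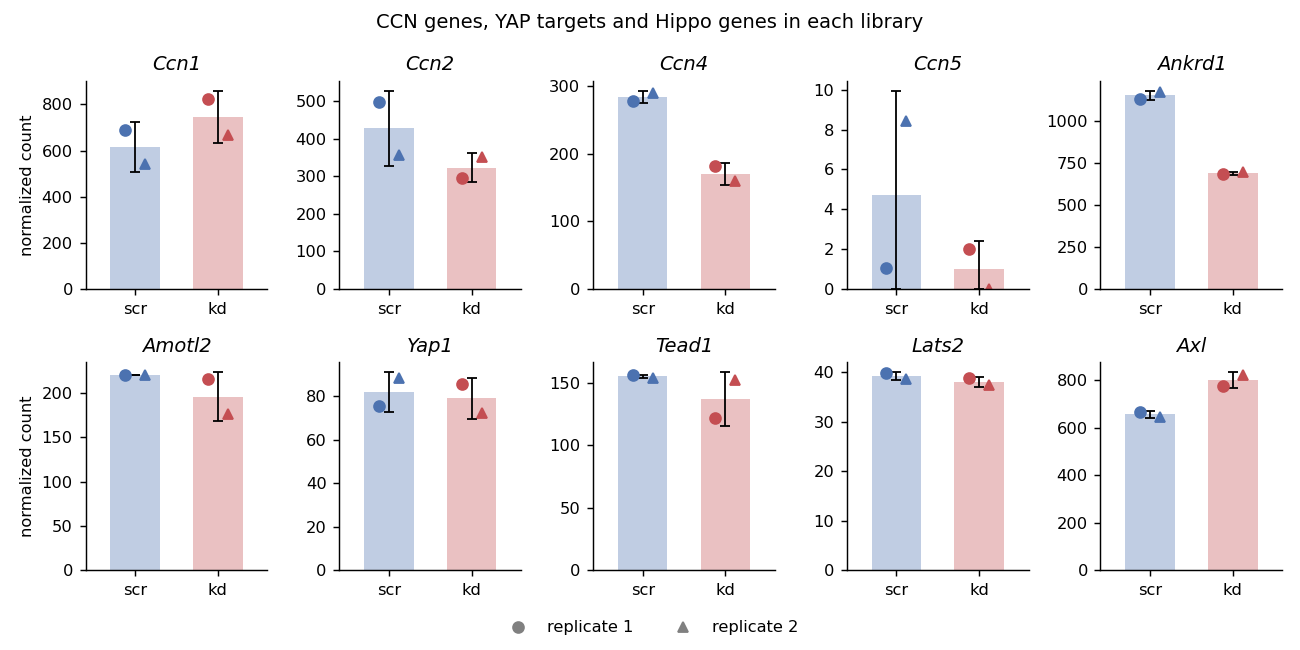
Normalized counts (reads scaled to the mean library size, linear axes from 0, each gene with its own axis) of the 10 genes in scrambled (scr, blue) and *Hnrnpl* knockdown (kd, red) myoblasts. Circles are replicate 1, triangles replicate 2, bars the group means and error bars 1 SD of 2 libraries, cut at 0; the groups stand furthest apart against their spread in *Ankrd1* (1152 against 688) and *Ccn4* (284 against 170).

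*Ankrd1* (ENSMUSG00000024803.10, chr19:36089352-36097506) encodes a muscle ankyrin repeat protein of the nucleus and sarcomere and is a target of YAP and TEAD. It had 1082 and 1392 reads in the scrambled libraries against 684 and 595 in the knockdown libraries. Normalized counts were 1133 and 1171 in scrambled against 681 and 695 in knockdown, so the libraries of a group lay within a few percent of each other and the groups lay far apart. *Ankrd1* fell by 0.74 ± 0.13 (SE) on the log2 scale (edgeR adjusted p = 0.00218), with a 95% interval from -1.02 to -0.46. The log2 ratio was -0.73 in batch 1 and -0.75 in batch 2. It was called in all 15 alternative fits run for it, with log2 fold changes from -0.77 to -0.51. The other muscle ankyrin repeat genes gave no value to compare, since *Ankrd2* had 0, 3, 1 and 0 reads and *Ankrd23* had none.

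*Axl* (ENSMUSG00000002602.17, chr7:25456535-25488329), a receptor tyrosine kinase of the TAM family, had 636 and 769 reads in the scrambled libraries against 780 and 705 in the knockdown libraries. Its normalized counts were 666 and 647 in scrambled against 777 and 824 in knockdown, and both knockdown libraries stood above both scrambled libraries. *Axl* had a log2 fold change of 0.29 ± 0.13 (SE) with a 95% interval from 0.007 to 0.57, but the edgeR adjusted p was 0.217 and the size was under the 0.5 that a call needs. The log2 ratio was 0.22 in batch 1 and 0.35 in batch 2. Its relatives had few reads, *Tyro3* 9 to 14 and *Mertk* 9 to 16 per library. Of the TAM ligands, *Pros1* had 12 to 24 reads per library and *Gas6* was listed at 0 in all 4, and of the 4 genes of this group that were tested, edgeR and DESeq2 called 0 (1, *Axl*, had an unadjusted p under 0.05).

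*Amotl2* (ENSMUSG00000032531.16, chr9:102593836-102610617) encodes an angiomotin, which binds YAP and holds it in the cytoplasm, and is itself a YAP target. It had 210 and 262 reads in the scrambled libraries against 216 and 151 in the knockdown libraries. The normalized counts of the scrambled libraries were 220 in both, and those of the knockdown libraries were 215 and 176, both lower but 1 of them only slightly. The log2 fold change of -0.16 (95% interval -0.49 to 0.16) was not called, with an edgeR adjusted p of 0.577. The other angiomotin genes were not called either, *Amot* with a log2 fold change of -0.66 (edgeR adjusted p = 0.241) from 14 to 39 reads per library and *Amotl1* with -0.24 (edgeR adjusted p = 0.704).

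**Figure D2:**
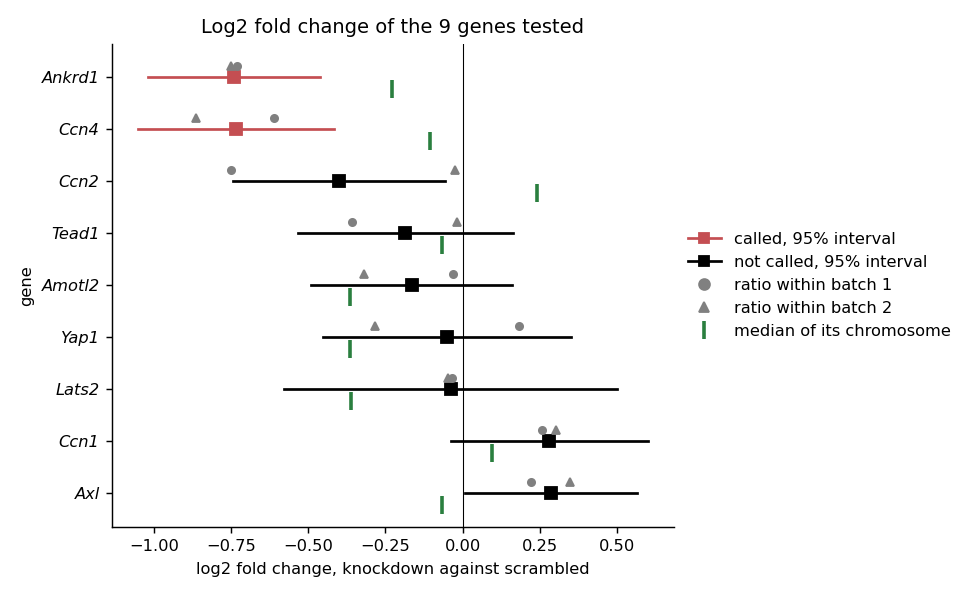
Log2 fold change, knockdown against scrambled, of the 9 genes tested (squares) with 95% intervals, red where called, beside the ratio within batch 1 (circles) and batch 2 (triangles) and the median log2 fold change of all tested genes on the same chromosome (green ticks). The intervals of *Ankrd1* and *Ccn4* end at -0.46 and -0.42, and the 2 batch ratios of *Ccn2* lie at -0.75 and -0.02.

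Of the pathway genes, *Yap1* (ENSMUSG00000053110.14, chr9:7932000-8004661) had 72 and 105 reads in the scrambled libraries against 86 and 62 in the knockdown libraries. Its normalized counts, 75.4 and 88.3 in scrambled against 85.7 and 72.5 in knockdown, overlapped, and the 2 batches went opposite ways (0.18 and -0.28 on the log2 scale). Its log2 fold change was -0.05, with a 95% interval from -0.45 to 0.35 (edgeR adjusted p = 0.911), so a change by the size seen in *Ankrd1* lies outside the interval. *Wwtr1*, which encodes the YAP paralog TAZ, had a log2 fold change of -0.21 (95% interval -0.56 to 0.14) and was not called.

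*Tead1* (ENSMUSG00000055320.19, chr7:112278522-112506014) had 149 and 183 reads in the scrambled libraries against 122 and 130 in the knockdown libraries. Normalized counts were 156 and 154 in scrambled against 122 and 152 in knockdown, and knockdown 2 was about level with the scrambled libraries. Its log2 fold change was -0.19 (95% interval -0.54 to 0.16; edgeR adjusted p = 0.559). The other TEAD genes were not called, *Tead2* with a log2 fold change of -0.65 (edgeR adjusted p = 0.114), *Tead3* with 1.18 (edgeR adjusted p = 0.185) from 4 to 15 reads per library, and *Tead4* with 0.58 (edgeR adjusted p = 0.526) from 4 to 17 reads. Of the TEAD cofactors of the vestigial-like family, *Vgll3* had 109 and 93 reads in scrambled against 103 and 76 in knockdown (log2 fold change 0.01), while *Vgll2* and *Vgll4* had at most 3 reads in any library.

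*Lats2* (ENSMUSG00000021959.17, chr14:57926960-57995845) had 38 and 46 reads in the scrambled libraries against 39 and 32 in the knockdown libraries. The normalized counts lay between 37.4 and 39.8 in all 4 libraries. The log2 fold change of -0.04 had the widest 95% interval of the 9 genes, from -0.58 to 0.50, since so few reads were counted. Its paralog *Lats1* had 76 and 95 reads in scrambled against 100 and 82 in knockdown and differed by 0.29 on the log2 scale (edgeR adjusted p = 0.354).

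The median log2 fold change of the tested genes differed between chromosomes, and its part in the results was not tested. The median log2 fold change was -0.37 on chromosome 9 (*Yap1* and *Amotl2*), -0.36 on chromosome 14 (*Lats2*), -0.23 on chromosome 19 (*Ankrd1*), -0.10 on chromosome 15 (*Ccn4*), -0.07 on chromosome 7 (*Tead1* and *Axl*), 0.10 on chromosome 3 (*Ccn1*) and 0.24 on chromosome 10 (*Ccn2*). With these medians removed, *Ankrd1* and *Ccn4* were still called, at -0.51 and -0.63. *Ccn2* was then called as well, at -0.64 (edgeR adjusted p = 0.0346). *Amotl2*, *Yap1* and *Lats2* changed sign, to 0.20, 0.32 and 0.32, and none of them was called.

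Ratios of 2 genes within a library need no scaling between libraries. *Ccn1* had 2.49 and 1.86 reads per read of *Ccn4* in scrambled against 4.55 and 4.20 in knockdown. *Axl* had 0.588 and 0.552 reads per read of *Ankrd1* in scrambled and 1.14 and 1.18 in knockdown. In both pairs a gene that fell was set against one with a positive fold change, so these ratios restate the normalized counts without their scaling. *Ccn1* had 1.39 and 1.51 reads per read of *Ccn2* in scrambled against 2.80 and 1.90 in knockdown, whereas *Ccn2* had 1.79 and 1.23 reads per read of *Ccn4* in scrambled against 1.63 and 2.21 in knockdown, which overlapped. The ratio of *Ankrd1* to *Ccn4*, the 2 genes that fell, was 4.08 and 4.03 in scrambled against 3.76 and 4.38 in knockdown, and that of *Ccn1* to *Axl* was 1.04 and 0.835 in scrambled against 1.06 and 0.810 in knockdown, so in these last pairs the scrambled values lay between the knockdown values. None of these ratios was tested. Where the groups did not overlap, the ratios describe these libraries only, and they do not show which of the 2 genes differed.

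Some exons of these genes are shared with other annotated genes, and the strand setting of the counting is not given in the sources used here. *Ccn2* shares 36.5% of its exonic bases with *Gm15270* on the opposite strand, *Ankrd1* 24.3% with *Gm56671* and *Ccn1* 23.0% with *Gm17501*. *Gm15270* and *Gm56671* had at most 1 read in any library, and *Gm17501* had 32 and 62 reads in scrambled against 38 and 31 in knockdown. *Lats2* shares 28.2% of its exonic bases with *Gm49361* on its own strand, on which no read was counted. No exonic base of *Ccn4*, *Ccn5*, *Amotl2*, *Tead1* or *Axl* is shared. Reads that overlap 2 genes were set aside by the counting, and these made up 16.0% to 16.5% of all reads in each library.

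The other genes of these pathways did not move as 1 block. Over all genes tested, 2.33% were called higher and 3.22% lower, the shares to set beside the counts below. The lists were chosen with earlier results of these data known. Of 22 YAP target genes, 18 were tested, 2 were called higher, 1 was called lower and 15 were not called, with a median log2 fold change of -0.10 beside -0.00059 over all genes tested. The gene called lower was *Ankrd1*. Those called higher were *Asap1*, an ARF GTPase activating protein (127 and 137 reads in scrambled, 270 and 191 in knockdown; log2 fold change 0.99; edgeR adjusted p = 0.00104), and the forkhead factor *Foxf2* (29 and 34 reads against 59 and 48; 0.96; edgeR adjusted p = 0.0276). The 4 DESeq2 configurations called *Ankrd1* and *Asap1* and not *Foxf2*. With the members described above left out, 12 targets were tested, and the median was 0.02. Of 25 Hippo kinases, scaffolds and angiomotins, 22 were tested and only *Mob1b*, a coactivator of LATS kinases, was called. It rose from 64 and 95 reads in scrambled to 126 and 102 in knockdown (log2 fold change 0.73; edgeR adjusted p = 0.0200) and was called by none of the 4 DESeq2 configurations. Of the 9 YAP cofactors and TEAD family genes, 7 were tested and 0 were called by edgeR or DESeq2, with 2 of them under an unadjusted p of 0.05 (*Tead2* and *Tead3*), a share to be read against the 1894 of 8670 genes that had one.

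CCN proteins act through integrins, heparan sulfate proteoglycans and LRP receptors. All 9 receptor genes on the list were tested, of which 2 were called higher and 1 lower. The shares over all genes tested were 2.33% called higher and 3.22% called lower. *Itga5*, the α chain of a fibronectin receptor, fell from 224 and 298 reads in scrambled to 148 and 115 in knockdown (log2 fold change -0.78; edgeR adjusted p = 0.00471). *Itgb5* rose by 0.64 (edgeR adjusted p = 0.0240) and *Lrp1*, a large endocytic receptor that binds CCN2, by 0.84 on the log2 scale (edgeR adjusted p = 0.00364). *Lrp1* was called by all 4 DESeq2 configurations, *Itga5* by the 2 with the local fit and *Itgb5* by none. *Itgb3* was not called at -1.23 (edgeR adjusted p = 0.0669) from 10 to 36 reads per library.

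Of 12 other matricellular genes, 6 were tested, with 1 called in each direction, beside 2.33% called higher and 3.22% called lower over all genes tested. *Tnc*, which encodes tenascin C, fell from 429 and 509 reads in scrambled to 76 and 99 in knockdown (log2 fold change -2.21; edgeR adjusted p = 4.08e-07), and *Thbs1*, which encodes thrombospondin 1, rose by 0.56 (edgeR adjusted p = 0.0429), a call that DESeq2 made with the local fit only. Of 13 matrix genes that respond to TGF-β, of which CCN2 is a known effector, 10 were tested, 1 was called in each direction and the median log2 fold change was -0.19. *Col1a2* fell by 1.37 on the log2 scale, while *Ltbp2* rose by 1.11 with edgeR and was not called by DESeq2.

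SRF and its MRTF cofactors respond to actin assembly and share targets with YAP. Of 16 SRF and MRTF target genes, 14 were tested, with a median log2 fold change of -0.18. Of these 14, 4 were called lower and 1 higher, beside 3.22% and 2.33% of all genes tested. The genes that fell were *Fhl1* (-2.83), *Myl9* (-2.04), *Tpm1* (-1.71) and *Acta2* (-1.36), which encode a LIM domain protein, a myosin light chain, a tropomyosin and smooth muscle α-actin. *Actg2* had 4 and 3 reads in scrambled against 15 and 21 in knockdown and was called higher by edgeR and not by DESeq2, and the remaining 9 genes were not called by edgeR. Of 11 Wnt target genes, 5 were tested and edgeR and DESeq2 called 0, with log2 fold changes from -0.03 to 0.57 and 0 genes under an unadjusted p of 0.05. Markers aside, p before adjustment was under 0.05 in the lists with calls for 2 of 3 CCN genes and 7 of 18 YAP targets. The same held for 1 of 1 muscle ankyrin repeat genes, 2 of 22 Hippo kinases, scaffolds and angiomotins and 4 of 9 CCN receptors. Further counts were 4 of 6 other matricellular genes, 6 of 10 TGF-β responsive genes and 7 of 14 SRF and MRTF targets. Over all genes tested the count was 1894 of 8670.

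**Figure D3:**
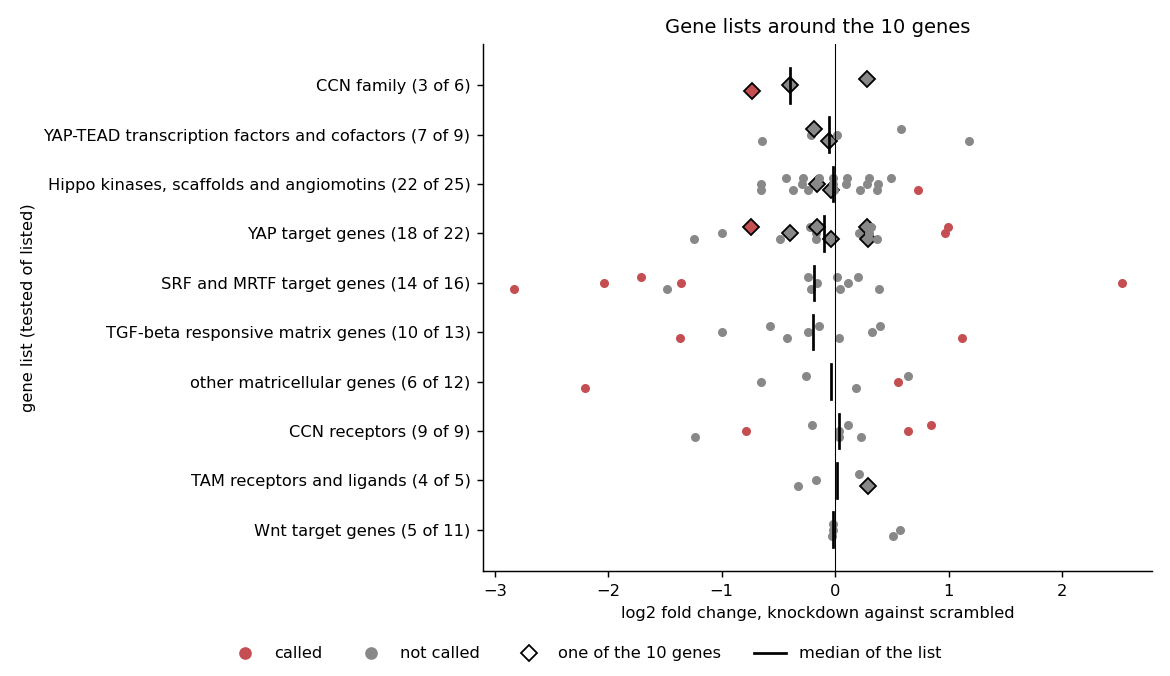
Log2 fold change, knockdown against scrambled, of the tested genes of 10 gene lists (points, offset vertically so that they can be told apart), red where called, with the list medians as vertical lines and the genes described in full as diamonds. Some genes stand on more than 1 list; the lists scatter on both sides of 0, and their medians lie between -0.40 (the CCN family, 3 genes) and 0.04 (CCN receptors).

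The genes whose pattern over the 4 libraries was most like that of *Ankrd1* were *Map2k1*, *Ddah2* and *Serpinf1*, at distances of 0.0158, 0.0852 and 0.0893 between log2 normalized counts centered on each gene's mean, out of 2568 genes with a mean normalized count over 100. Those most like *Ccn4* were *Itga5*, *Wdr82* and *Retreg1*, at 0.0625, 0.0633 and 0.0669. All of these genes had log2 fold changes between -0.78 and -0.67. With 4 libraries such distances describe the libraries and little else.

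hnRNP L binds RNA with CA repeats, so the canonical transcripts were also searched for ACACACA. Introns, other transcripts and other CA-rich sequences were not searched, so missing letters do not mean a missing binding site. The letters were found in 5 of the 10 transcripts, where 33.1% of 21630 protein-coding transcripts and 35.5% of those tested held them. *Tead1* held the longest run of alternating C and A, 16 bases in its 3′ UTR, and *Ccn4* held a run of 8 in its 3′ UTR. The transcripts of *Yap1*, *Lats2* and *Axl* held the letters once each, and those of *Ccn1*, *Ccn2*, *Ccn5*, *Ankrd1* and *Amotl2* did not hold them, so of the 2 genes that fell, 1 held the letters and 1 did not. The runs of *Tead1* and *Ccn4* are printed 5′ to 3′ with DNA letters in their transcript context, with the run in capitals.
Tead1: aaatgtgCACACACACACACACAactgtta
Ccn4: gggagaactatACACACACtcataaatgga

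**Figure D4:**
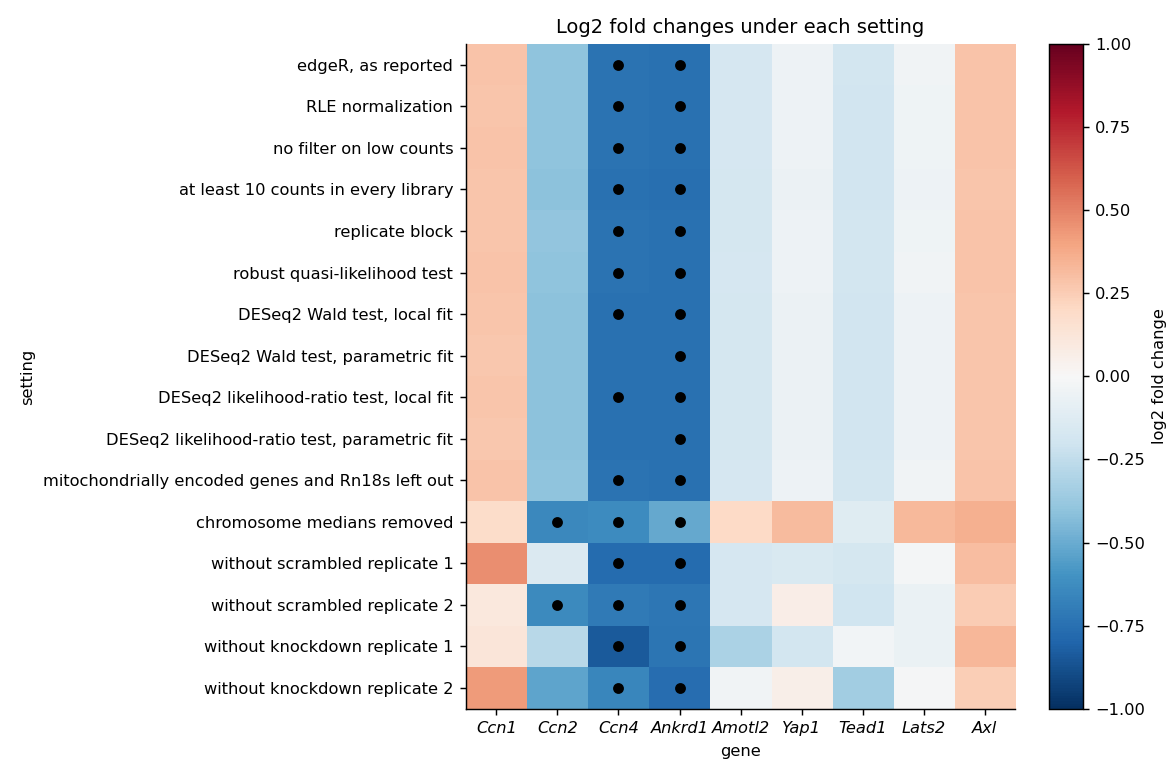
Log2 fold change, knockdown against scrambled (color, from -1 in blue to 1 in red), of the 9 genes tested (columns) under the reported edgeR fit and 15 alternatives (lines), with a dot where the adjusted p was under 0.05. *Ankrd1* carries a dot on every line, *Ccn4* on all but the 2 parametric DESeq2 fits, and *Ccn2* on 2.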

How the data were processed

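Direct RNA reads of 2 scrambled and 2 *Hnrnpl* knockdown C2C12 libraries were used. The authors basecalled with guppy, mapped to GRCm39 with minimap2 2.17 and counted with HTSeq 0.9.1, per the study's methods and processing notes, and deposited raw counts per gene. The annotation release is not given in the sources used here. GENCODE vM39 gave symbols for 56017 of the 56748 IDs. Of all reads, 56.5% to 57.8% were assigned to genes, and lines that name no gene were left out of library sizes and tests.

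edgeR 4.0.16 (R 4.3.3) was run with TMM, filterByExpr and the quasi-likelihood test (Benjamini-Hochberg over 8670 genes), the thresholds being the authors'. Standard errors and 95% intervals of log2 fold changes were taken from the quasi-likelihood statistic. Ratios within a batch used 0.5 added to normalized counts. Alternatives were RLE factors, 2 other filters, the robust test, 4 DESeq2 1.42.0 configurations, genes left out, chromosome medians removed, other thresholds, the replicate block and each library left out. The tests were tried on simulated data.

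Replicate numbers pair the libraries by batch in the labels. As a check, the deviations from the group mean of scrambled 1 and knockdown 1 were correlated over 3711 genes, with r = 0.01. Within groups, chi-square per gene was 2.54 and 2.79, above counting error. The genes and lists were chosen with earlier results of these data known. Named are the 10 genes, *Hnrnpl*, their relatives, every called gene of a list, and the 3 genes most like each called gene. Named outside this rule, after their values were seen, were *Itgb3*, the overlapping genes and the cell type markers that were not called. Of the items analysed, 1 promoter window and 1 gene of a list are not reported here. Transcript and exon counts were not analysed here.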

Additional observations from a re-analysis of the deposited data

How the results depend on the processing

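Over 135 fold changes recomputed for the 9 genes tested, 126 kept their direction and their side of the threshold. With the replicate block 484 genes and 2 of the 9 were called, beside 481 and 2 without it, and the block changed no call of these genes. DESeq2 called 228 and 222 genes with the local fit (Wald and likelihood-ratio test) and 115 and 112 with the parametric fit, where only 1 of the 9, *Ankrd1*, was called. Removing chromosome medians left 289 genes called and turned *Amotl2* to 0.20, *Yap1* to 0.32 and *Lats2* to 0.32. Leaving out 1 library gave 194 (without knockdown 1) to 433 genes called and 2 to 3 of the 9, the third being *Ccn2* without scrambled 2. *Yap1*, with a log2 fold change of -0.05 over all libraries, then ranged from -0.18 to 0.0664, *Ccn1* from 0.10 to 0.47, *Ccn2* from -0.63 to -0.15, *Amotl2* from -0.32 to -0.03 and *Tead1* from -0.35 to -0.03. An adjusted p under 0.01 left 199 genes, and an absolute log2 fold change over 1 left 187 genes and 0 of the 9, since *Ankrd1* and *Ccn4* changed by less. The causes were not tested. *Ccn5*, which the filter on low counts left out, was tested without that filter and was not called. The interval of *Lats2* ran from -0.58 to 0.50.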

Other observations

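Other letters searched in the same promoter windows gave few matches among the 9 windows reported. The TATA letters TATAAA, or TTTATA on the other strand, were present in 13.2% of all promoters and in those of *Ccn1* (at -27 to -22) and *Lats2*, where 2 matches overlapped between -245 and -238. The SMAD letters CAGACA, present on either strand in 4098 of the 21617 promoters, were found in *Ccn5* alone (at -91 to -86). No window among these held the TCF letters TTCAAAG (5.28% of promoters) or the SRF CArG box (1.55%).

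Of the neuron markers, *Tubb3*, a β-tubulin that is also read in other cells, fell from 150 and 149 reads in scrambled to 20 and 18 in knockdown (log2 fold change -2.77; edgeR adjusted p = 4.82e-07), while *Rbfox3* and *Snap25* were listed at 0 in all 4 libraries. Of the 8 markers of differentiated muscle, 6 were listed at 0 in all 4 libraries, and their summed level was 5.09 to 11.5 CPM.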
